A study of Apis mellifera with 6 samples.

Results

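In honey bee midguts, 53 of the 10151 genes listed differed at least 3-fold among 3 heated bees while staying within 2-fold among 3 bees kept at 35 °C. They were chosen by these values alone. A gene was taken when its mean over the 3 libraries at 45 °C was at least 100 normalized counts, its highest library at 45 °C held at least 3 times the lowest, its highest library at 35 °C held less than 2 times the lowest, and its ranges at the 2 temperatures overlapped. The 100 genes with the highest mean at 35 °C were left out, as were IDs beginning with CYP, Mir, TRNA, Apid, PGRP or GNBP. Normalized counts are reads per gene divided by a size factor of each library. The heated bees were fed sucrose solution with 0.5% DMSO at 45 °C for 4 h. The bees at 35 °C were given the same solution, also for 4 h according to the labels. Each library came from poly(A)-selected RNA of the midgut of 1 worker caught at the landing board of an outbred colony, with 3 libraries at each temperature. According to the labels the 3 libraries at 35 °C repeat records of an earlier series, which those at 45 °C do not, so the effects of temperature and of the series cannot be told apart.

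The midgut is the digestive part of the bee intestine. Its wall is an epithelium of absorptive and secretory enterocytes, hormone-producing enteroendocrine cells and stem cells that replace them, with visceral muscle, nerve endings and tracheae on the outside. Heat above the range that a colony keeps leads insect cells to raise chaperone genes and to lower the synthesis of many other proteins. Foragers and guards caught at a landing board can differ in age and task. In RNA of a whole midgut, fewer cells of a type and less RNA per cell cannot be told apart.

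The heated libraries held 24690115 to 26921417 recovered reads and the 35 °C libraries 23305758 to 26279130. Spearman's correlation over all genes was at least 0.973 between libraries of the same temperature. The 53 genes together took 0.0761 to 0.0991% of the reads of a library at 45 °C and 0.102 to 0.112% at 35 °C. The lowest heated library of a member held a median of 74 reads, and the exact 95% counting interval of the ratio of highest to lowest heated library lay above 2 for all 53, with 2.18 as its lowest bound. For 18 of the 53 that interval reached below 3, so that counting error alone could place them on either side of the limit. These intervals cover counting error only. They were built on the same ratio by which the members were chosen, so bounds above 2 follow in part from the choice.

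Names were scarce. Of the 53 IDs, 44 were found in RefSeq's gene table for Amel_HAv3.1, 38 as protein-coding genes and 6 as long non-coding RNA (lncRNA) genes, and 9 were not in that table. By symbol, 1 member, Tg, was named. No other member had a symbol, neither the files nor the table gave a product name, and no member was on any of the gene lists drawn up by function. Of the members found there, 13.6% were lncRNA genes, beside 3.43% of the table genes with a mean of at least 100 at 45 °C. IDs not in the table made up 17.0% of the members and 4.21% of all genes with such a mean.

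A spread of this size was no more frequent among heated midguts than among those at 35 °C. Of the 7464 genes with a mean of at least 100 at 45 °C, 196 (2.63%) had a ratio of at least 3 there. Of the 7259 genes with such a mean at 35 °C, 200 (2.76%) had a ratio of at least 3 at that temperature. The median ratio of the 7464 genes was 1.28 at 45 °C and 1.29 at 35 °C. Asking for less than 2-fold at the other temperature reduced the 196 genes to 84, and the overlap of the ranges reduced these to 55, of which 2 were among the 100 highest genes. With the temperatures exchanged, the same rule gave 66 genes, variable at 35 °C and steady at 45 °C, whose median ratio at 35 °C was 3.96. No test applies to these counts, because the rule used every value that they summarise.

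**Figure D1:**
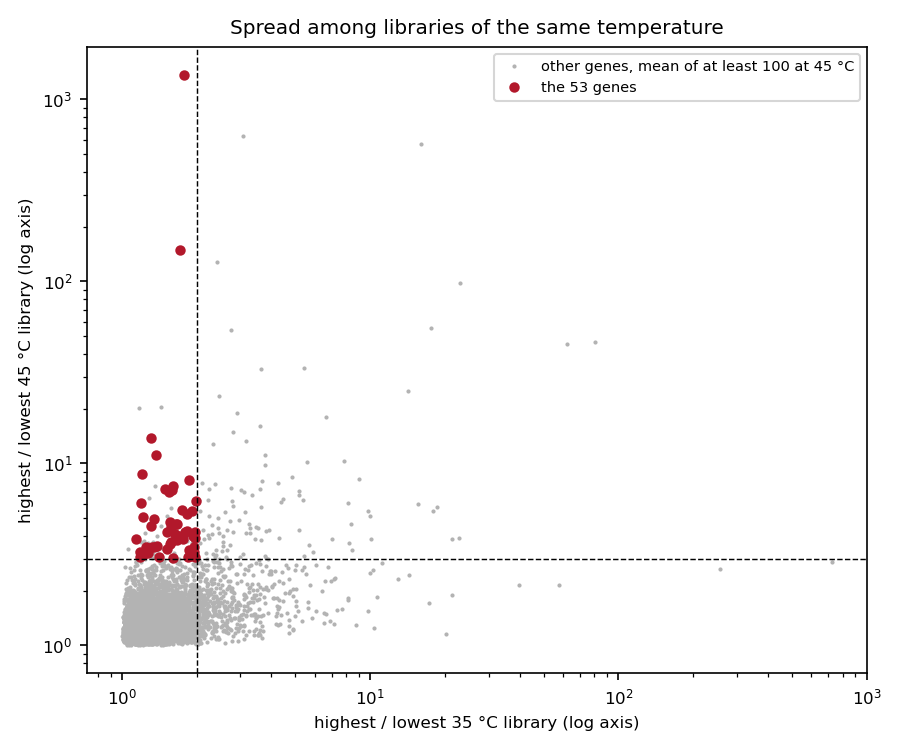
The ratio of highest to lowest library at 45 °C (vertical, log axis) against the same ratio at 35 °C (horizontal, log axis), 1 point per gene with a mean of at least 100 at 45 °C; genes listed at 0 in any library are not drawn. Dashed lines mark the ratios of 3 and 2 in the rule. The 53 genes (red) lie above 3 and left of 2, most of them below a ratio of 5 at 45 °C.

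Most members had a ratio under 5 at 45 °C. The median ratio of the 53 genes was 4.09 at 45 °C, and 16 of them reached 5, 4 reached 10 and 2 reached 50. At 35 °C their median ratio was 1.60, with a lowest of 1.14 and a highest of 1.98, and 44 of the 53 lay above the median of 1.29 of all genes with a mean of at least 100 at 45 °C. The 3 members just inside the limit were LOC552810 with a ratio of 3.03, LOC107965122 with 3.04 and LOC100577646 with 3.05 among the heated libraries. Just outside it lay LOC100578439 with 3.00, LOC725131 with 2.98 and LOC725860 with 2.95, which met every other condition. The members' means at 45 °C ran from 107 to 2346 normalized counts with a median of 239, and 6 genes had a mean of at least 1000.

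No single bee was highest in most members, though in the deposited values replicate 1 was most often the highest library and also most often the lowest. The highest heated library was 45 °C replicate 1 for 24 members, replicate 2 for 20 and replicate 3 for 9, and the lowest was replicate 1 for 21, replicate 2 for 16 and replicate 3 for 16. Each of the 6 possible orders of the libraries occurred, the most frequent being replicate 2 over 3 over 1, with 15 members, and replicate 1 over 3 over 2, with 13. Replicate 1 was highest for 45.3% of the members, beside 44.1% of the 143 other genes with a ratio of at least 3 and 35.2% of the 7411 other genes with a mean of at least 100. Replicate 3 was highest for 17.0% of the members, beside 30.8% and 30.5% of those genes. When the reads were scaled by library size alone the rule again took 53 genes, 38 of them the same. Replicate 1 was then highest for 17, replicate 2 for 19 and replicate 3 for 17, so replicate 1 no longer led. With TMM factors replicate 3 was highest for 9 of 53 and after quantile normalization for 11 of 60. Its number thus rose most with library size alone.

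**Figure D2:**
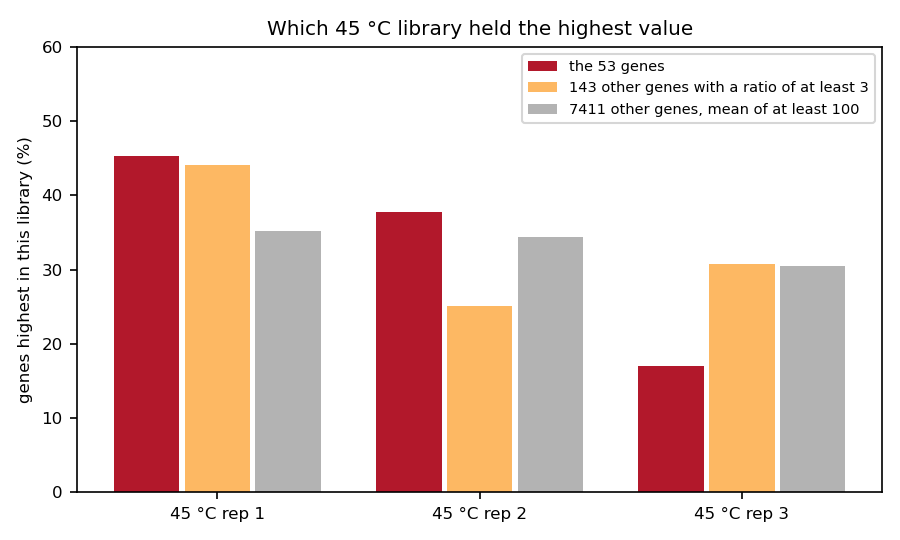
Bars give the percentage of genes whose highest value at 45 °C was in replicate 1, 2 or 3, for the 53 genes, the 143 other genes with a ratio of at least 3 and the 7411 other genes with a mean of at least 100. The 53 genes were highest in replicate 1 in 45.3%, in replicate 2 in 37.7% and in replicate 3 in 17.0% of cases.

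Only part of the spread took the form of 1 bee apart from the other 2. In 15 members the middle heated library lay within 1.5-fold of the lowest and at least 1.5-fold below the highest, so that 1 library was high. In 13 members 1 library was low in the same sense. The remaining 25 met neither description. The limit of 1.5 was chosen after the values were seen.

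**Figure D3:**
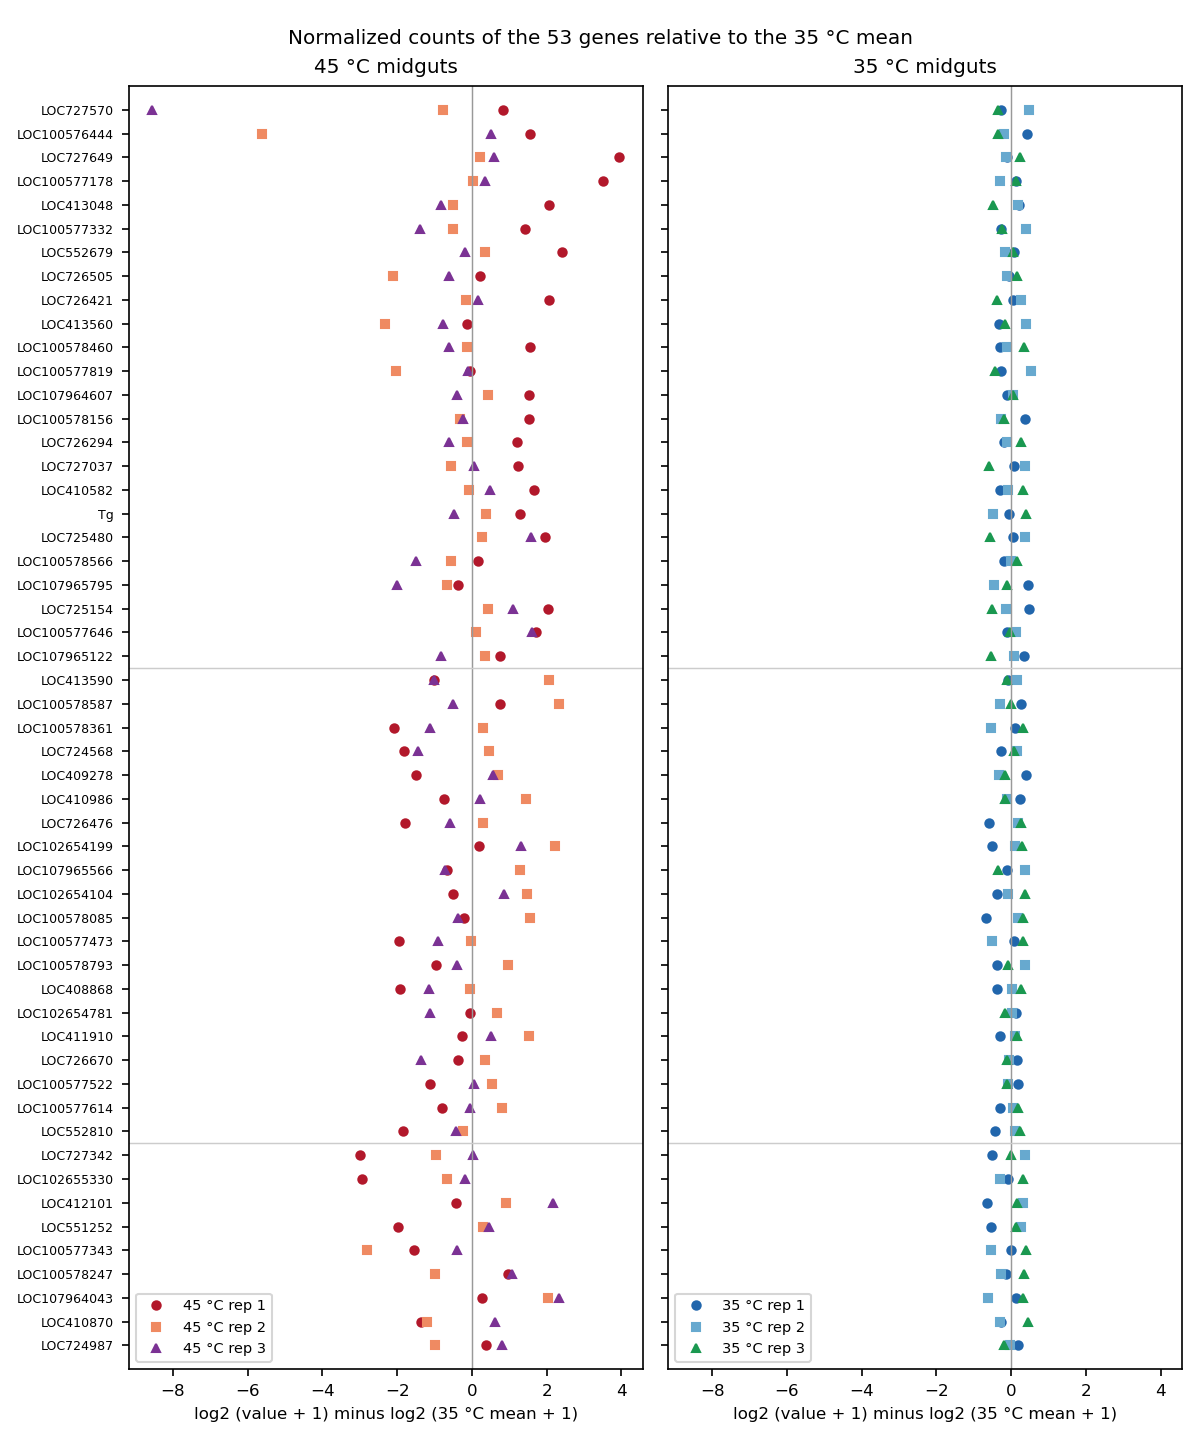
Each row is 1 of the 53 genes, with its 3 libraries at 45 °C on the left and its 3 libraries at 35 °C on the right, as log2(value + 1) minus log2(35 °C mean + 1). Rows are grouped by the heated library with the highest value (replicate 1 at the top, then 2, then 3). The heated points spread widely to both sides of 0 while the 35 °C points stay close to it, as the rule demands, and the libraries change places from gene to gene.

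The widest spreads were those of 2 genes with far fewer reads in a single heated bee than in any other library. LOC727570, an ID not in the gene table, had 1354, 436 and 1.00 normalized counts in replicates 1, 2 and 3 at 45 °C, against 623, 1047 and 590 at 35 °C. The value in replicate 3 was a single read, with an exact Poisson 95% interval of 0.0253 to 5.57 reads. Replicate 1 was above all 35 °C libraries and both other heated libraries were below them. Its ratio of highest to lowest was 1354, with a counting interval of 242 to 53518. Protein-coding LOC100576444 had 4378, 29.5 and 2135 normalized counts at 45 °C, against 1998, 1298 and 1172 at 35 °C. Here the low library was replicate 2, with 26 reads, and replicates 1 and 3 were above the 35 °C range. The ratio was 148, with a counting interval of 101 to 227. The low library thus came from different bees for the 2 genes. Ratios of at least 50 occurred in 11 genes with a mean of at least 100 at 45 °C and in 11 with such a mean at 35 °C.

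**Figure D4:**
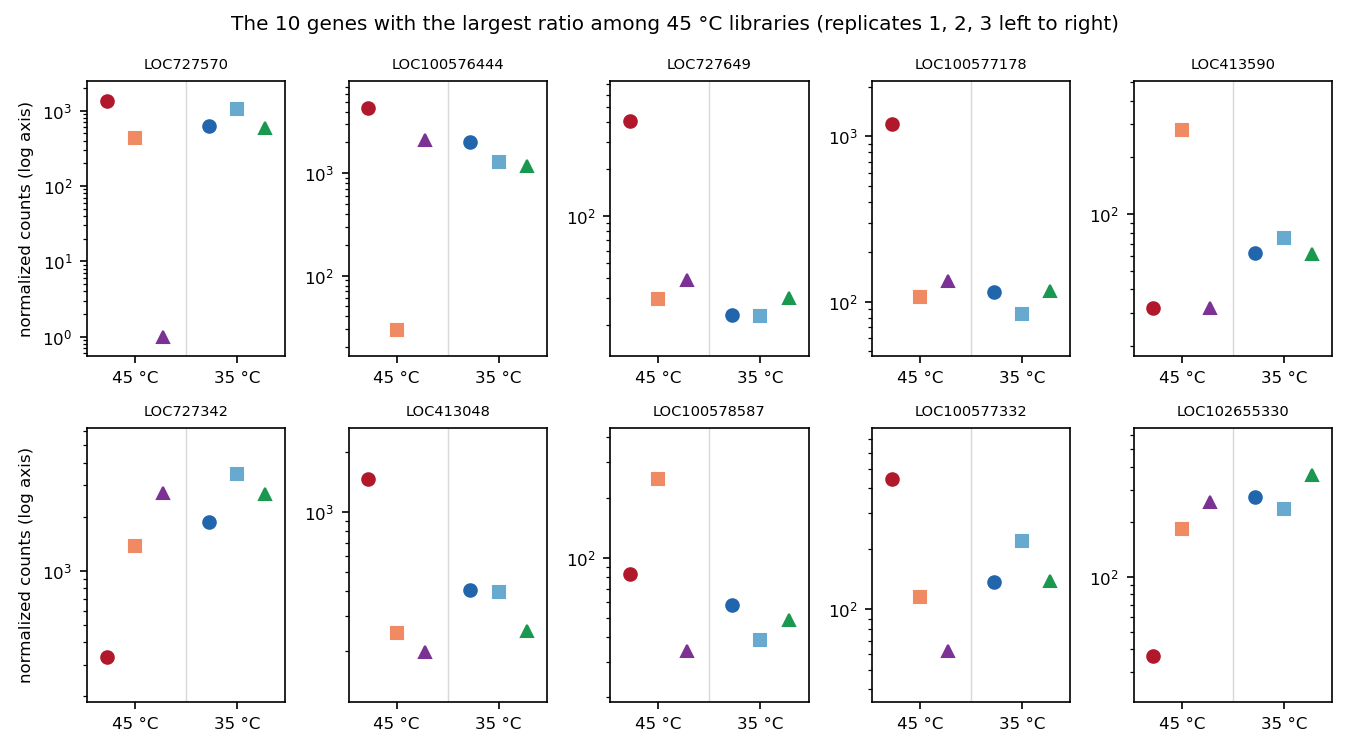
Normalized counts (log axes, which differ between panels) of the 10 genes with the largest ratio among heated libraries, replicates 1, 2 and 3 at 45 °C on the left of each panel and at 35 °C on the right. LOC727570 falls to 1.00 in replicate 3 and LOC100576444 to 29.5 in replicate 2, while LOC727649 and LOC100577178 are high in replicate 1 alone.

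In the 24 genes that were highest in 45 °C replicate 1, this library lay above the 35 °C range in 20 and within it in 4. Its median was 2.90 times the 35 °C mean, and the lowest heated library had a median of 0.668 times that mean. Of the 24, 19 were protein-coding and 2 were lncRNA genes. The lowest library was replicate 2 in 13 and replicate 3 in 11.

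Several of these genes were high in this 1 bee and near the 35 °C level in the others. LOC727649 had 406, 29.5 and 39.0 normalized counts in replicates 1, 2 and 3 at 45 °C, against 23.3, 22.8 and 30.0 at 35 °C. Replicate 1 reached 16.0 times the 35 °C mean, the highest such multiple of any member. LOC100577178 had 1192, 107 and 133 normalized counts at 45 °C, against 114, 84.6 and 116 at 35 °C, with replicate 1 at 11.4 times the 35 °C mean and replicate 2, the lowest, at 1.02 times. Its span in the gene table overlaps LOC408740, whose own ratio at 45 °C was 1.25. LOC413048 had 1472, 247 and 197 normalized counts at 45 °C, against 403, 394 and 251 at 35 °C, and here the other heated libraries fell below the 35 °C range.

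LOC552679 and LOC100578566 were the only members next to each other in the gene table, where their spans overlap. LOC552679 had 959, 231 and 158 normalized counts at 45 °C, against 192, 162 and 189 at 35 °C. LOC100578566 had 186, 112 and 58.0 at 45 °C, against 146, 167 and 187 at 35 °C. Both followed the order of replicate 1 over 2 over 3. LOC552679 lay above its 35 °C range in replicates 1 and 2 and just below it in replicate 3, while LOC100578566 lay within its range in replicate 1 and below it in the others. Whether counting used strand is not stated, and reads could have been split between overlapping genes.

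Of the more abundant members, LOC726294 had 4193, 1656 and 1188 normalized counts at 45 °C, against 1578, 1662 and 2178 at 35 °C. LOC100578156 had 3184, 887 and 929 at 45 °C, against 1430, 912 and 971 at 35 °C. In both, replicate 1 stood alone above the 35 °C libraries. LOC107964607 had 1289, 594 and 337 at 45 °C, against 407, 462 and 461 at 35 °C, and its heated libraries fell on both sides of a narrow 35 °C range. LOC727037 had 1499, 431 and 658 at 45 °C, against 670, 818 and 418 at 35 °C. Tg had 760, 403 and 226 at 45 °C, against 300, 223 and 415 at 35 °C. In LOC727037 and Tg only replicate 1 left the 35 °C range. LOC100577332 had 443, 115 and 62.0 at 45 °C, against 137, 218 and 138 at 35 °C, with replicate 1 above and the others below.

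In the 20 genes that were highest in 45 °C replicate 2, that library exceeded the 35 °C range in 16 and stayed within it in 4, with a median of 1.70 times the 35 °C mean. The lowest library was replicate 1 in 15 of them, at a median over the 20 genes of 0.472 times the 35 °C mean. As a multiple, the median of the lowest library was thus farther from the 35 °C mean than that of the highest. LOC413590 had 32.0, 281 and 32.0 normalized counts at 45 °C, against 62.5, 74.5 and 61.8 at 35 °C. Replicate 2 stood at 4.24 times the 35 °C mean and the lowest heated bee at 0.483 of it. LOC100578587 had 82.5, 248 and 34.0 at 45 °C, against 57.8, 38.9 and 48.6 at 35 °C, with replicate 3 below and the others above its 35 °C range. Neither gene had another gene overlapping it in the table.

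LOC410986, at a higher level, had 682, 3081 and 1319 normalized counts at 45 °C, against 1338, 1048 and 1022 at 35 °C. Replicate 2 was above and replicate 1 below every 35 °C library. LOC726476 had 831, 3525 and 1890 at 45 °C, against 1885, 3256 and 3436 at 35 °C. In the gene table its span overlaps LOC408517, LOC726459 and LOC726495, and all 3 were lowest in the same heated library. LOC408517 had 607, 1564 and 1274 normalized counts at 45 °C, against 442, 1621 and 1297 at 35 °C. The order of LOC408517 was the order of LOC726476 at 45 °C.

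Other genes of this group had a lowest library farther from the 35 °C mean, as a multiple, than their highest. LOC724568 had 60.3, 298 and 78.0 normalized counts at 45 °C, against 179, 240 and 228 at 35 °C. LOC409278 had 92.3, 429 and 389 at 45 °C, against 349, 209 and 235 at 35 °C. These 2 genes lay on both sides of the 35 °C range. LOC100578361, an lncRNA gene, had 41.9, 222 and 82.0 at 45 °C, against 195, 124 and 225 at 35 °C. For LOC552810 the values were 309, 937 and 823 at 45 °C, against 819, 1187 and 1312 at 35 °C, and only replicate 1 was outside the 35 °C range.

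Of the 9 genes highest in 45 °C replicate 3, 6 exceeded the 35 °C range in that library and 3 stayed within it. LOC727342, an ID not in the gene table, had 334, 1371 and 2704 normalized counts at 45 °C, against 1865, 3464 and 2682 at 35 °C. LOC102655330, an lncRNA gene, had 36.9, 182 and 256 at 45 °C, against 274, 234 and 362 at 35 °C. In these genes replicate 3 was at the 35 °C level and the other heated bees were below it. LOC100577343 had 128, 52.3 and 285 at 45 °C, against 375, 256 and 491 at 35 °C, the same form with replicate 2 lowest. LOC412101 had 35.7, 92.0 and 222 at 45 °C, against 30.8, 60.9 and 53.9 at 35 °C, with replicates 2 and 3 above the 35 °C range. It overlaps 3 other listed genes in the table. LOC551252 had 29.5, 145 and 164 at 45 °C, against 82.1, 144 and 131 at 35 °C, with replicate 1 at 0.249 times the 35 °C mean and the others just above the range.

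Set against the 35 °C range, 28 of the 53 members left it in both directions, at least 1 heated library lying above and at least 1 below. A further 14 left it only upwards and 11 only downwards. In 28 members the highest heated library was at least 2 times the 35 °C mean, in 24 the lowest was at most 0.5 of it, and 3 genes, LOC100576444, LOC100577332 and LOC413590, met both. The mean was higher at 45 °C than at 35 °C for 34 members and lower for 19. On the log2 scale 29 were higher and 24 lower, and the median difference was 0.01, beside -0.01 over all genes tested.

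The difference between temperatures was fitted with limma on log2(value + 1) over all 10151 genes. A gene was called when its adjusted p was below 0.05 and its log2 fold change exceeded 1 in size. Of the 53 members 2 were called, both higher at 45 °C and 0 lower, beside 18.0% of all genes called in either direction, 13.1% higher and 4.94% lower. An unadjusted p below 0.05 was reached by 7 members, beside 48.8% of all genes, and 39.3% of all genes had an adjusted p below 0.05 at any fold change. The ranges of the 2 temperatures lay apart in 53.2% of all genes and, by the rule, in 0 members. The rule asks for overlapping ranges in this same contrast, so the low number follows from the choice of genes. LOC725154 had 1266, 415 and 670 normalized counts at 45 °C, against 429, 282 and 218 at 35 °C. Limma gave it a log2 difference of 1.24 with a standard error of 0.41 (adjusted p = 0.0455). LOC107964043, an lncRNA gene, had 56.6, 192 and 237 at 45 °C, against 51.3, 29.6 and 58.3 at 35 °C. For this gene limma's log2 difference was 1.60 with a standard error of 0.54 (adjusted p = 0.0490). In each gene 1 heated library lay inside the 35 °C range. LOC725154 stayed called in 10 of 16 alternatives and LOC107964043 in 7 of 16. Over the alternatives the adjusted p of LOC725154 ran from 0.00356 to 0.129 and that of LOC107964043 from 0.00185 to 0.15. Besides scaling by library size alone and limma without trend, LOC725154 lost its call without 45 °C replicate 1 or 3 or 35 °C replicate 2 or 3. LOC107964043 lost its call with library size alone, with limma without trend, with a mean of at least 100 and after quantile normalization. Its call was also lost when any library other than 45 °C replicate 1 was left out. The median standard error of the log2 fold change was 0.51 for members and 0.21 for all genes, which the choice of members also fixes.

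The rule did not use the values of the genes next to the members, though some of these genes overlap their member and could share reads with it. Of the 43 members placed on a linkage group in the gene table, 44 adjacent genes were listed with a mean of at least 100 at 45 °C and were no members themselves. Their median ratio among heated libraries was 1.40, beside 1.28 over all genes with such a mean, and 37 of the 44 stayed under 2. A ratio of at least 2 was found in 7 (15.9%), beside 7.88% of all genes with such a mean, and 6 of these 7 had their heated libraries in the same order as the member, as had 16 of all 44. Of these 7, LOC409970 and LOC726459 overlap their members. No test was made of the share with a ratio of at least 2.

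**Figure D5:**
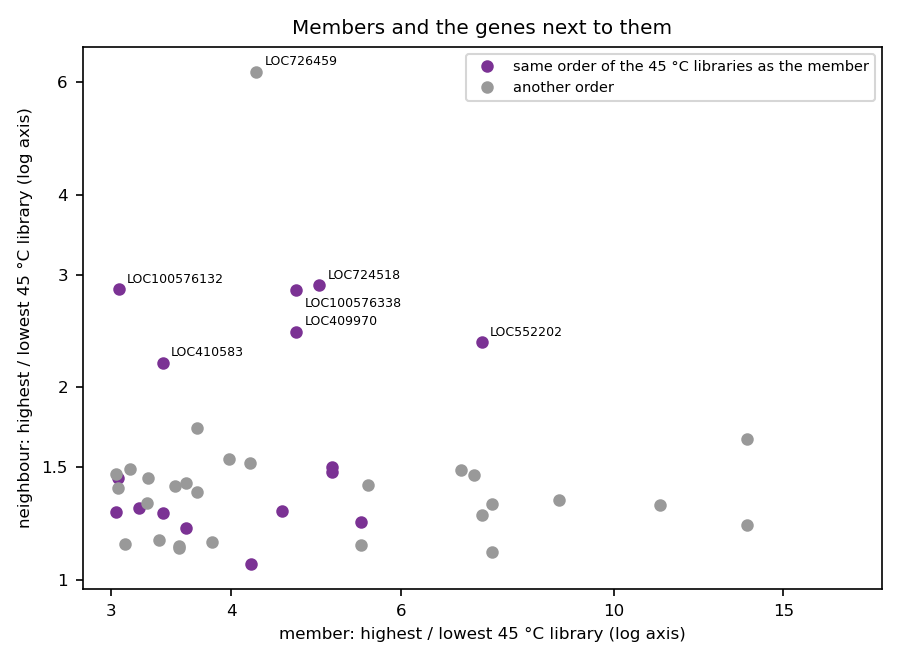
Ratio of highest to lowest library at 45 °C of the gene next to a member (vertical, log axis) against that of the member (horizontal, log axis), 1 point for each of 44 neighbouring genes. Purple points have their heated libraries in the same order as the member. Labels name the 7 neighbours with a ratio of at least 2; the other 37 lie below.

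The neighbours with the same order included pairs whose spans do not overlap in the table. Next to LOC725154, LOC100576132 had 2729, 959 and 1410 normalized counts at 45 °C, against 1138, 713 and 663 at 35 °C. Both genes were highest in replicate 1 and lowest in replicate 2. Next to LOC724568, LOC724518 had 501, 1447 and 987 at 45 °C, against 275, 157 and 99.8 at 35 °C. Its heated libraries followed the order of LOC724568, yet all of them lay above its 35 °C range, while 2 of the 3 for LOC724568 lay below. Next to LOC410582, LOC410583 had 7665, 3506 and 4308 at 45 °C, against 5959, 4537 and 4839 at 35 °C. LOC410582 itself had 563, 166 and 247 at 45 °C, against 144, 166 and 219 at 35 °C. LOC413560 had 620, 133 and 392 at 45 °C, against 537, 890 and 597 at 35 °C, and was followed in order by LOC409970, which overlaps it, and by LOC100576338, which does not.

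For other members the genes around them were steady. LOC413048, with a ratio of 7.47, lies between LOC725186 and LOC552709, whose ratios were 1.31 and 1.11. LOC726294 lies between Cdk5, the gene of cyclin-dependent kinase 5, and LOC408327. Cdk5 had 886, 830 and 931 normalized counts at 45 °C, against 538, 640 and 618 at 35 °C, and spread by a ratio of 1.12 where LOC726294 spread by 3.53. By their spans there, 16 members overlapped another listed gene. These are whole gene spans in a later assembly than the one used for counting. As the use of strand is not stated either, how far such genes shared reads is not known.

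Markers of other cell types were looked up by symbol, and none was a member. The 7 troponin genes (TpnI, TpnT and 5 troponin C genes), which mark muscle, summed to 5869 to 7069 normalized counts at 45 °C and 4676 to 7647 at 35 °C. TpnCIIIa and TpnCIIIb were lower in every heated library than in any at 35 °C, while the ranges of the other troponin genes overlapped. The 3 enteroendocrine peptide genes Tk, NPF and Apime-ASTA summed to 1170, 913 and 647 in replicates 1, 2 and 3 at 45 °C, against 882 to 990 at 35 °C. All 3 were lowest in replicate 3, and Tk was highest in replicate 2 where the others were highest in replicate 1. The 7 nerve genes summed to 9086 to 11857 at 45 °C and 6016 to 6869 at 35 °C. Most of that sum was Syx1A, the gene of syntaxin 1A of vesicle release, with 10108, 8050 and 8628 at 45 °C, against 4454, 5539 and 5152 at 35 °C. The other 6 nerve genes summed to 1036 to 1748 at 45 °C and 1306 to 1562 at 35 °C, which overlap, and Para and nAChRa8 were lower in every heated library than in any at 35 °C. Nrx-1, the gene of the synaptic protein neurexin, was the 1 nerve gene with a ratio of at least 3 among heated libraries, with 652, 84.1 and 331 at 45 °C, against 237, 55.8 and 63.6 at 35 °C. Its order of replicate 1 over 3 over 2 was shared by 3 of the 7 nerve genes, itself included, and by 13 members. Of the alpha-glucosidase genes on the list of enterocyte digestive enzymes, AGLU2 and Hbg2 were abundant in all libraries. Hbg3 was far lower, with 1089 to 1982 normalized counts over both temperatures. PPO, the 1 haemocyte gene listed, had 97.3, 100 and 111 at 45 °C, against 57.8, 54.2 and 65.3 at 35 °C. Among 17 genes of fat body, haemolymph and glands, none was at 0 in every library, 6 had a ratio of at least 3 at 45 °C, and the sum was 3020, 4397 and 4955 in replicates 1, 2 and 3 at 45 °C, against 4508 to 4827 at 35 °C. Of these, Melt, the gene of the venom peptide melittin, had 14.8, 7.95 and 430 normalized counts at 45 °C, against 4.66, 1.69 and 3.53 at 35 °C. Vg, the gene of the yolk protein vitellogenin, had 84.9, 342 and 505 at 45 °C, against 5.60, 87.2 and 13.2 at 35 °C. Both were highest in replicate 3. Of the 6 genes with a ratio of at least 3, 3 were highest in replicate 3, 2 in replicate 2 and 1 in replicate 1. Among the members these numbers were 9, 20 and 24. The 17 genes were not held to the members' minimum mean of 100 at 45 °C. Obp3, Obp13 and Obp21, all among the 6, were below 100 normalized counts in every heated library. The numbers beside the members thus do not compare genes of like level. Of the 17 genes, 8 were lowest in replicate 1, 6 in replicate 2 and 3 in replicate 3, beside 21, 16 and 16 members. The part of these cell types in the spread of the members was not tested.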

How the data were processed

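Poly(A)-selected RNA of individual midguts was sequenced, 3 at 45 °C and 3 at 35 °C. Per the labels and the methods, the authors trimmed the reads (Trimmomatic 0.36), aligned them to Amel 4.5 (STAR is named), counted reads per gene (Subread is named) and divided the counts by DESeq2 size factors. The deposited signal values are these normalized counts. Whole reads were recovered from their steps, with 100% of values within 0.01 of a read, and size factors computed again over the 6 libraries matched, so the 3 tables could be joined. The labels and the methods both state 4 h at 35 °C; as these libraries repeat records of an earlier series, and the methods give DMSO controls of other experiments a longer feeding time, that time could not be checked.

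The rule was applied to the deposited values. Limma 3.58.1 (R 4.3.3, with trend, no block) was run on log2(value + 1) for genes averaging at least 1, with Benjamini-Hochberg adjustment. DESeq2 1.42.0, edgeR 4.0.16 on recovered reads, and other pseudocounts, filters, scalings, limits and libraries left out were alternatives. The tests were tried on simulated data. Members and lists were chosen with earlier results of these data known. Named were the 10 members with the largest ratio at 45 °C, the 10 with the highest mean there, the 5 with the largest ratio for each highest library, the member with a symbol, the 3 genes on each side of the limit of 3 and, chosen after their values were seen, the members called and those described with a neighbour. Each midgut was sequenced individually per the methods; the methods take all bees of 1 experiment from 1 colony, and whether the repeated 35 °C libraries share the colony of the heated bees is not stated. Lists were matched by symbol only, and the gene table was used for names, gene types and neighbours, as its assembly is a later one; 91.6% of the listed IDs were in it. Promoter motifs were not analysed here.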

Additional observations from a re-analysis of the deposited data

How the results depend on the processing

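The 53 members became 94 with a ratio of at least 2.5 at 45 °C and 28 with at least 4, 30 with a mean of at least 200, 18 with a ratio under 1.5 at 35 °C, and 82 when no overlap of ranges was asked for. Of the sets under TMM factors (53 genes), quantile normalization (60) and library size alone (53), 53, 51 and 38 were members. With 1 library left out the number ran from 13 to 88. It was 13 without 45 °C replicate 1, 20 without 45 °C replicate 2, 36 without 45 °C replicate 3 and 88 without 35 °C replicate 1. Fewer libraries make a limit easier or harder to meet by construction, which holds alike for each heated library. With a ratio of at least 4, 11 members were highest in 45 °C replicate 1 and 10 in replicate 2. With library size alone 17 genes were highest in replicate 1, 19 in replicate 2 and 17 in replicate 3.

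Over all genes limma called 1327 higher and 501 lower at 45 °C. With a mean of at least 100, 872 were higher. With library size alone 829 were higher and 1616 lower, and after quantile normalization 801 were lower, as the median log2 difference of all genes moved to -0.39 and -0.15. With 1 library left out 1177 to 1309 were higher and 382 to 545 lower. Of the members, limma called 2 (7 at an unadjusted p below 0.05), DESeq2 7, edgeR 4, and limma 5 with library size alone, 1 after quantile normalization, 1 of the 44 that passed a mean of at least 100, and 0 without trend (6 at an unadjusted p below 0.05). With 1 library left out the number ran from 0 to 9, with 0 from limma without 35 °C replicate 2 (5 at an unadjusted p below 0.05) and without 35 °C replicate 3 (2 at an unadjusted p below 0.05), 5 without 45 °C replicate 1, 9 without 45 °C replicate 2 and 1 without 35 °C replicate 1. The replicate block called 1348 genes higher and 524 lower and 5 members. Same-numbered libraries correlated in their deviations by 0.17, 0.10 and 0.01, and only replicate 1 correlated best with its own number. With so few libraries these values cannot settle whether the numbers pair the bees. Of the values of named members under alternatives, 476 kept their side of the threshold, 15 lost a call (6 of LOC725154, 9 of LOC107964043) and 16 gained one, among them LOC100577343 and LOC100577646 with DESeq2, and no call changed direction. No cause of these changes was tested beyond the construction named. Apart from LOC727570, every member had at least 20 reads in its lowest heated library.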
